A study of Mus musculus with 4 samples.

Results

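The 10 genes described here encode the contractile apparatus of smooth muscle: Acta2, Actg2, Tagln, Myl9, Cnn1, Cnn2, Tpm1, Tpm2, Cald1 and Lmod1. They were taken by gene symbol from a table of 23366 genes, all 10 were found, and each has a single value in each library. RNA-seq was made from immortalized mouse embryonic fibroblasts, a cell line derived from the connective tissue of mouse embryos. Cells carried Myc, MycN, a protein the labels call Minimal Myc, or an empty vector, and every culture received adenoviral Cre recombinase before a recovery labelled 48 with no unit. The series design describes the comparison as cells with deleted Myc against cells that hold a Myc protein, and the labels do not say what Minimal Myc retains. There is 1 library for each culture, so no difference below has a replicate check, no test was possible, and a difference between neighbours in an order of levels cannot be set against any spread. Values are FPKM, fragment numbers scaled to transcript length and to the library total.

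Smooth muscle contracts when myosin pulls on filaments of smooth muscle actin, after phosphorylation of the regulatory light chain that Myl9 encodes. Calponin, caldesmon, transgelin and tropomyosin bind the actin filament and stabilize it or set how myosin reaches it. Most of these genes are classical targets of serum response factor, Srf, which binds a DNA element named the CArG box with the cofactors myocardin or Mrtf. Fibroblasts express a part of the same programme, most of all when they turn into contractile myofibroblasts. Myc proteins are transcription factors that bind the E-box CACGTG together with Max.

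Of the 10 genes, 8 had an entry in the RefSeq table of promoters (build GRCm38.p6), with 9 promoters among them. Actg2 and Tagln had no entry, so the motif counts do not cover them. The 250 bases before the RefSeq start are shown for 3 genes whose windows hold a CArG box or a near match, and for Tpm2, whose window holds none. Capitals mark the CArG box, in its exact form or with at most 1 G or C in its A/T core. The windows are chr2:156775214-156775463 on the plus strand for Myl9, chr19:34255374-34255623 on the minus strand for Acta2, chr10:79988350-79988599 on the plus strand for Cnn2 and chr4:43523555-43523804 on the minus strand for Tpm2.
Myl9: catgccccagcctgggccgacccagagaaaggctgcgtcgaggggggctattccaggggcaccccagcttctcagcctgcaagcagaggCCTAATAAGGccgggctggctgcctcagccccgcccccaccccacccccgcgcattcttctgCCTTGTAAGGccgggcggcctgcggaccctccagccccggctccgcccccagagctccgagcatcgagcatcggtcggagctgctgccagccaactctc
Acta2: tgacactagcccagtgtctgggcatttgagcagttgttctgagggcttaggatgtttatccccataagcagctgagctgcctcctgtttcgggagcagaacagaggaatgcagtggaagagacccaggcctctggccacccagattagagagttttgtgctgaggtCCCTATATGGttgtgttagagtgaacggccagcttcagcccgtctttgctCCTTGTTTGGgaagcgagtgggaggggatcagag
Cnn2: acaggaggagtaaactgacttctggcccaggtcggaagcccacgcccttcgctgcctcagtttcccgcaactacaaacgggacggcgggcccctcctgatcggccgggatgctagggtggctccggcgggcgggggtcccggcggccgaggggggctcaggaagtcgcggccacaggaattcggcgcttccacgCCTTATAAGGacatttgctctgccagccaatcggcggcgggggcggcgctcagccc
Tpm2: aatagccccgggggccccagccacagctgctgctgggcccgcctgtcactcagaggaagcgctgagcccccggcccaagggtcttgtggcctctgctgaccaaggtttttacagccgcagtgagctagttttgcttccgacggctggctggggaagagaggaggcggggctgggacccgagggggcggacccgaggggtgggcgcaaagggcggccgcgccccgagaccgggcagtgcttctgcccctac

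Myl9 held an exact CArG box whose first base lies 161 bases before the start and a near match at 99 bases. Cnn2 held an exact one at 56 bases, and Acta2 held near matches at 84 and 34 bases. An exact CArG box was present in 2 of the 9 promoters of contractile genes and in 1.47% of 32851 promoters of this length, and the looser form in 3 of 9 and in 8.59%. The E-box CACGTG was found in 0 of the 9, against 6.02% of all promoters. CATTCC, the motif of Tead factors, read on both strands, was in 4 of the 9 (Acta2, Cald1, Lmod1 and Tpm1), against 12.6% of all. These matches describe letters in a window and were not tied to the levels below.

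The levels of the 10 genes lay between 0.106 FPKM for Lmod1 and 666 FPKM for Tpm1, and the cells expressed a part of the contractile programme. Tpm1, Cald1, Acta2 and Cnn2 were among the most abundant messages in all 4 libraries, while Cnn1 was low and Lmod1 lower still. Tpm1 ranked between 116 and 180 among the 11640 genes that passed the filter (on average 1 FPKM or more across libraries, small RNA genes left out). Lmod1, which encodes leiomodin, a nucleator of actin filaments, did not pass this filter, so 9 members are called measured. Of 8 genes that define differentiated smooth muscle, only smoothelin (Smtn) was measured, at 22.3 FPKM in Myc, 22.1 in MycN, 18.2 in Minimal Myc and 20.6 in vector. Myh11, the smooth muscle myosin heavy chain, was 0.394 to 0.479 FPKM, and Myocd, the gene of myocardin, was 0.028 to 0.047. The label of smooth muscle genes therefore names the genes and not the cells. Fibroblast markers were high: 14 of 16 were measured, and their summed level was 3163 to 4311 FPKM. The summed level of 9 epithelial markers was 0.172 to 0.828 FPKM and that of 7 endothelial markers 0.250 to 1.32 FPKM, with each single gene of both lists below 1 FPKM in all libraries.

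**Figure D1:**
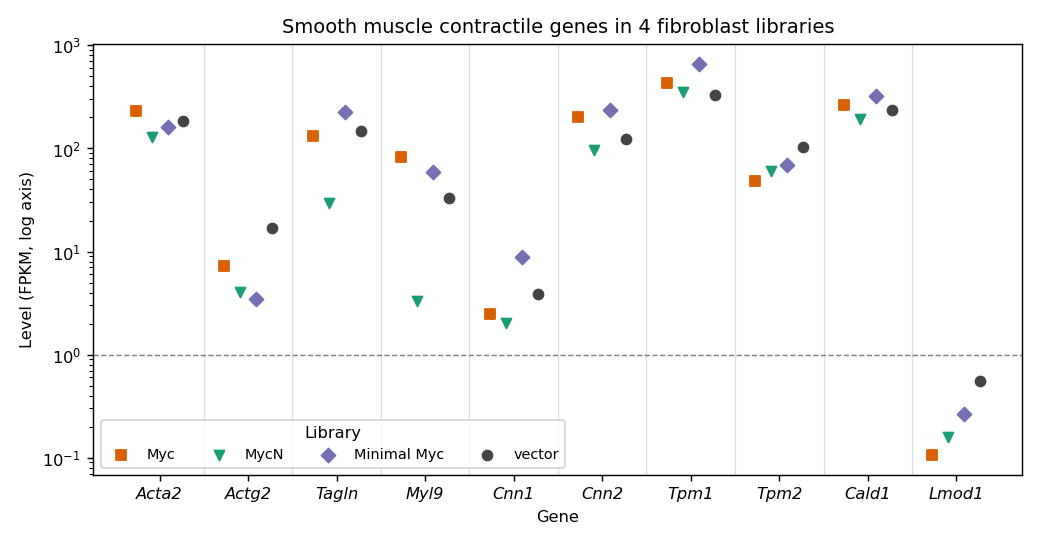
FPKM on a log axis for each of the 10 genes, with 1 point per library (Myc, MycN, Minimal Myc, vector); the dashed line marks 1 FPKM. The MycN point is lowest for Acta2, Tagln, Myl9, Cnn1, Cnn2 and Cald1, and for Myl9 it lies at 3.30 FPKM, far from 33.3 to 82.9 in the other libraries.

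The depth behind these values was estimated by reading the most frequent low step above a preset depth as 1 fragment, with an assumed fragment length. It came to 66800000 fragments in Myc, 91400000 in MycN, 86800000 in Minimal Myc and 65800000 in vector. In each library 297 to 319 genes lay at 1 fragment. Another 109 to 130 genes lay below 1 fragment, so not all low values were whole multiples and the depth is approximate. At that depth Myl9 in MycN, the smallest number among the measured members, rests on an estimated 295 fragments, so counting error is small beside the differences described here. Culture-to-culture variation is not covered by that statement. Myc itself stood at 141 FPKM in Myc, 4.36 in MycN, 32.6 in Minimal Myc and 22.2 in vector, so vector cells are not shown here to lack Myc RNA. Mycn stood at 0.275 FPKM in Myc, 178 in MycN, 95.9 in Minimal Myc and 0.390 in vector, so the Minimal Myc library also held Mycn RNA, and a value for the whole gene does not say which sequence it comes from. Malat1, an RNA that stays in the nucleus and codes for no protein, was 124 FPKM in Myc, 192 in MycN, 64.0 in Minimal Myc and 381 in vector. FPKM are shares of a library, and over the 11640 genes the median difference in log2(FPKM + 1) from vector was 0.47 both for Myc and for Minimal Myc and 0.42 for MycN. How far library composition moves with the contractile genes' differences was not tested, and differences relative to these medians are given where they change a count.

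Myl9 and Tagln showed the largest differences, and both were low in MycN. Myl9, the regulatory light chain of smooth muscle myosin, was 82.9 FPKM in Myc, 3.30 in MycN, 59.2 in Minimal Myc and 33.3 in vector. MycN was thus 10.1-fold below vector and 25.1-fold below Myc, while Myc and Minimal Myc were 2.49 and 1.78 times vector. On the log2(FPKM + 1) scale the difference between MycN and vector was -2.99, and only 10 of the 11640 genes tested had a lower one. Between MycN and Myc it was -4.28, with 5 genes lower. Tagln, which encodes transgelin, an actin-binding protein and an early marker of smooth muscle, was 133 FPKM in Myc, 29.4 in MycN, 226 in Minimal Myc and 147 in vector. In these bulk cultures fewer cells that express a gene and less RNA per cell cannot be told apart. The MycN level of Tagln was 5.01-fold below vector and 4.54-fold below Myc. Its difference of -2.29 from vector had 35 of 11640 genes below it. Among measured genes Tagln ranked 2789 in MycN, but 597 in Myc, 357 in Minimal Myc and 331 in vector. Myl9 ranked 9691 in MycN, against 1005 in Myc, 1514 in Minimal Myc and 1758 in vector. A rank within a library does not depend on how libraries are scaled.

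The smooth muscle actins were also lower in MycN than in Myc or vector, by a smaller factor than Myl9. Acta2, smooth muscle alpha-actin and the usual marker of myofibroblasts, was 231 FPKM in Myc, 129 in MycN, 161 in Minimal Myc and 184 in vector. Its highest library was 1.79 times its lowest, and no pair of libraries reached 2-fold in these unscaled values. In the authors' scaled values, which carry a factor per library, Acta2 was 471 in Myc, 167 in MycN, 207 in Minimal Myc and 184 in vector. There Myc passed 2-fold against each other library. Actg2, smooth muscle gamma-actin of visceral muscle, was 7.18 FPKM in Myc, 4.09 in MycN, 3.48 in Minimal Myc and 16.9 in vector. It was the only measured contractile gene at least 2-fold below vector in all 3 comparisons, which share the vector library. The factors were 2.35-fold for Myc, 4.12-fold for MycN and 4.85-fold for the Minimal Myc library. The share of all genes so low in all 3 was not counted. With the scaled values the call held for MycN and Minimal Myc but not for Myc, at 14.65 against 16.9 in vector. In Minimal Myc against vector, 24 of 11640 genes had a lower difference than Actg2. Actins have near-identical coding sequences, so fragments may be split between them and single values are uncertain.

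Calponins, which bind actin and restrain the myosin ATPase, were highest in Minimal Myc. Cnn1, the smooth muscle calponin, was 2.46 FPKM in Myc, 2.04 in MycN, 8.82 in Minimal Myc and 3.90 in vector. Cnn2, a calponin of many cell types, was 204 FPKM in Myc, 97.0 in MycN, 235 in Minimal Myc and 124 in vector. Cnn1 in Minimal Myc lay just past the 2-fold mark against vector on the log2(FPKM + 1) scale, with a ratio of FPKM of 2.26, and Cnn2 just inside it, with a ratio of 1.90. Both genes were more than 2-fold higher in Minimal Myc than in MycN, at 4.32 and 2.42 times.

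The tropomyosins, coiled-coil proteins that lie along the actin filament, went apart. Tpm1 was 432 FPKM in Myc, 355 in MycN, 666 in Minimal Myc and 327 in vector, and Minimal Myc was 2.04 times vector. Tpm2 was 48.2 FPKM in Myc, 60.6 in MycN, 68.8 in Minimal Myc and 103 in vector, so all 3 libraries with a Myc protein were below vector, by 2.15-fold in Myc, 1.71-fold in MycN and 1.50-fold with Minimal Myc. Cald1, the gene of caldesmon, an actin-binding inhibitor of the myosin ATPase, was 264 FPKM in Myc, 195 in MycN, 320 in Minimal Myc and 237 in vector, and no pair differed by 2-fold. With the scaled values Cald1 was 538 in Myc, 254 in MycN, 411 in Minimal Myc and 237 in vector. There Myc passed 2-fold against MycN and against vector. Tpm1, Tpm2 and Cald1 also make forms used outside muscle, and a value for the whole gene does not separate them.

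Lmod1 was 0.106 FPKM in Myc, 0.160 in MycN, 0.268 in Minimal Myc and 0.555 in vector. These rest on an estimated 27 fragments in Myc, 56 in MycN, 88 in Minimal Myc and 139 in vector. Exact 95% Poisson intervals, put on the FPKM scale, were 0.0696 to 0.154 in Myc, 0.121 to 0.208 in MycN, 0.215 to 0.330 in Minimal Myc and 0.467 to 0.655 in vector. They cover counting error only and take the estimated depth as known. Those of Myc and MycN overlap, and the other neighbours in this order are apart by counting error alone. Lmod1 was thus below vector in all 3 libraries, by 5.25-fold in Myc, 3.47-fold in MycN and 2.07-fold with Minimal Myc.

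**Figure D2:**
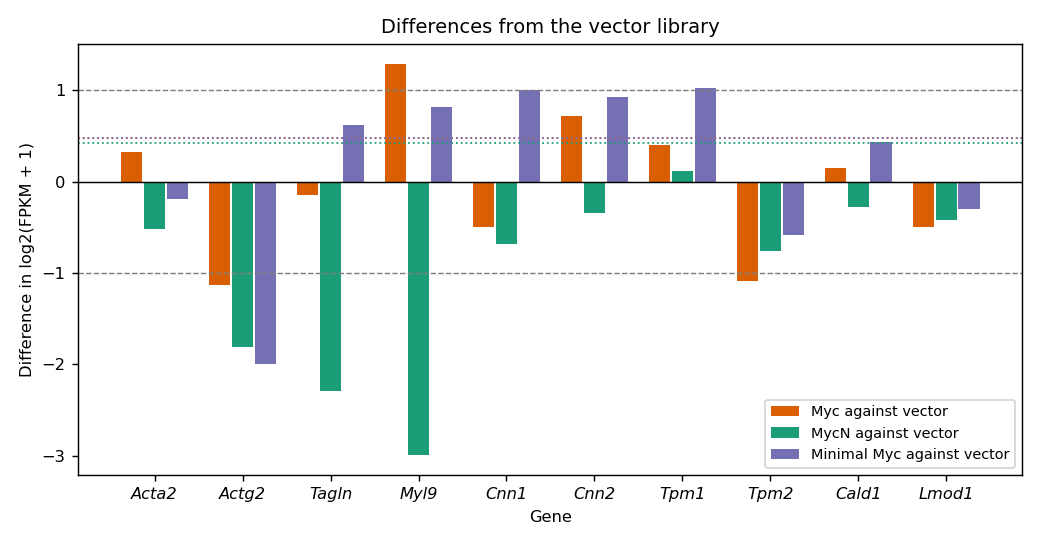
Difference in log2(FPKM + 1) from vector for each gene in Myc, MycN and Minimal Myc (bars); dashed lines mark 2-fold and dotted lines the median of all genes tested, 0.42 to 0.47. Myl9 and Tagln reach -2.99 and -2.29 in MycN, and Actg2 and Tpm2 are below 0 in all 3 libraries, as is Lmod1, which did not pass the filter.

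Counted together, the contractile genes stood lowest in MycN. Against vector, 3 of 9 measured genes were at least 2-fold lower in MycN (Actg2, Tagln and Myl9), where 1.86% of all genes tested were, and 0 were higher, where 7.65% were. Their median difference was -0.69, against 0.42 over all genes. All but Tpm1 had a lower FPKM in MycN than in vector, 8 of 9, while 18.2% of all genes did. MycN was the lowest of the 4 libraries for 6 of 9 (Acta2, Tagln, Myl9, Cnn1, Cnn2 and Cald1), which held for 11.8% of all genes. Relative to the median of all genes, 5 of 9 were at least 2-fold lower in MycN (background 4.19%), with Cnn1 and Tpm2 added. In the authors' table scaled by NanoString, a hybridization count of RNA molecules, the same 3 genes were at least 2-fold lower (background 1.25%) and 6 of 9 were lower at all (background 8.26%).

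In Myc against vector the 9 genes split. Actg2 and Tpm2 were at least 2-fold lower, where 1.56% of all genes were, and Myl9 was at least 2-fold higher, where 11.2% were. The median difference was 0.15, against 0.47 over all genes. This split depends on scaling. Relative to the median of all genes, 0 were at least 2-fold higher (background 1.87%) and Actg2 and Tpm2 lower (background 4.38%). With the scaled values, 5 were higher (background 78.5%) and 0 lower (background 0.498%).

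In Minimal Myc against vector, Cnn1 and Tpm1 were at least 2-fold higher, 2 of 9, where 13.6% of all genes were, so this share lies near the background. Actg2 was the 1 gene at least 2-fold lower, where 1.68% were. The median difference was 0.62, against 0.47 over all genes. Relative to that median, 0 were higher (background 3.71%), while Actg2 and Tpm2 were lower (background 4.68%). With the scaled values, 4 were higher (background 33.7%) and 1 lower (background 1.05%). Minimal Myc was the highest library for 5 of 9 (Tagln, Cnn1, Cnn2, Tpm1 and Cald1), and for 35.8% of all genes. Vector was the highest for 2 of 9, Actg2 and Tpm2, and for 5.53% of all genes.

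**Figure D3:**
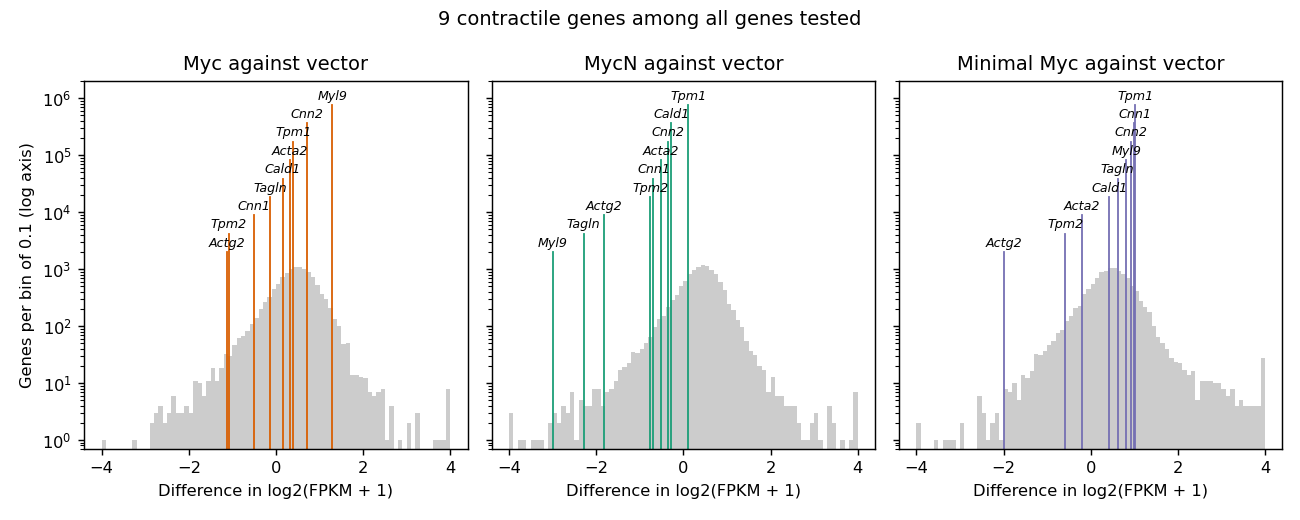
Histograms of the difference in log2(FPKM + 1) from vector over the 11640 genes tested, in bins of 0.1 with a log count axis, differences beyond 4 drawn in the outermost bins, and vertical lines at the 9 measured contractile genes, whose heights carry no value. In MycN the lines of Myl9, Tagln and Actg2 lie in the lower tail, at -2.99, -2.29 and -1.81, and 8 of 9 lie below 0.

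Between libraries with a Myc protein, the contrast lay between MycN and the others. In MycN against Myc, Tagln, Myl9 and Cnn2 were at least 2-fold lower, 3 of 9 with a background of 2.74%, and 0 were higher (background 1.95%). The median difference was -0.68, against -0.06 over all genes. With the scaled values 6 of 9 were lower (background 20.2%). In Minimal Myc against MycN, Tagln, Myl9, Cnn1 and Cnn2 were at least 2-fold higher, 4 of 9 with a background of 6.94%, and 0 were lower (background 3.69%). Myl9 was 17.9 times and Tagln 7.69 times its MycN level. With the scaled values these counts were also 4 (background 6.97%) and 0 (background 4.13%). In Minimal Myc against Myc, Cnn1 was at least 2-fold higher, at 3.58 times, where 4.48% of all genes were, and 0 were lower (background 2.16%). That 0 depends on the pseudocount: Actg2 was 2.06-fold lower by FPKM, and a pseudocount of 0.1 counts it. With the scaled values 3 of 9 were lower, Acta2, Actg2 and Myl9 (background 17.7%). These comparisons share libraries with each other and with those against vector.

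A ratio of a contractile gene to a related gene of all cells, taken within a library, does not depend on how libraries are scaled. The related genes were paired after the values were seen. Myl9 over Myl12a, a non-muscle regulatory light chain, was 0.242 in Myc, 0.00811 in MycN, 0.135 in Minimal Myc and 0.129 in vector. Tagln over Tagln2, a transgelin of non-muscle cells, was 0.697 in Myc, 0.149 in MycN, 0.583 in Minimal Myc and 0.886 in vector. Both ratios were thus lowest in MycN, by 15.9-fold and 5.94-fold against vector, while Myl12a and Tagln2 themselves were higher in MycN than in vector, at 407 and 197 FPKM against 258 and 166. Acta2 over Actb, cytoplasmic beta-actin, was 0.278 in Myc, 0.187 in MycN, 0.161 in Minimal Myc and 0.269 in vector. Tpm2 over Tpm4 was 0.139 in Myc, 0.166 in MycN, 0.135 in Minimal Myc and 0.283 in vector, so the vector library held the highest ratio by 1.70-fold or more. Actg2 over Actb was 0.00866 in Myc, 0.00597 in MycN, 0.00346 in Minimal Myc and 0.0246 in vector, again the highest. Light chain genes are close in sequence, so the split of fragments between Myl9 and Myl12a is uncertain.

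**Figure D4:**
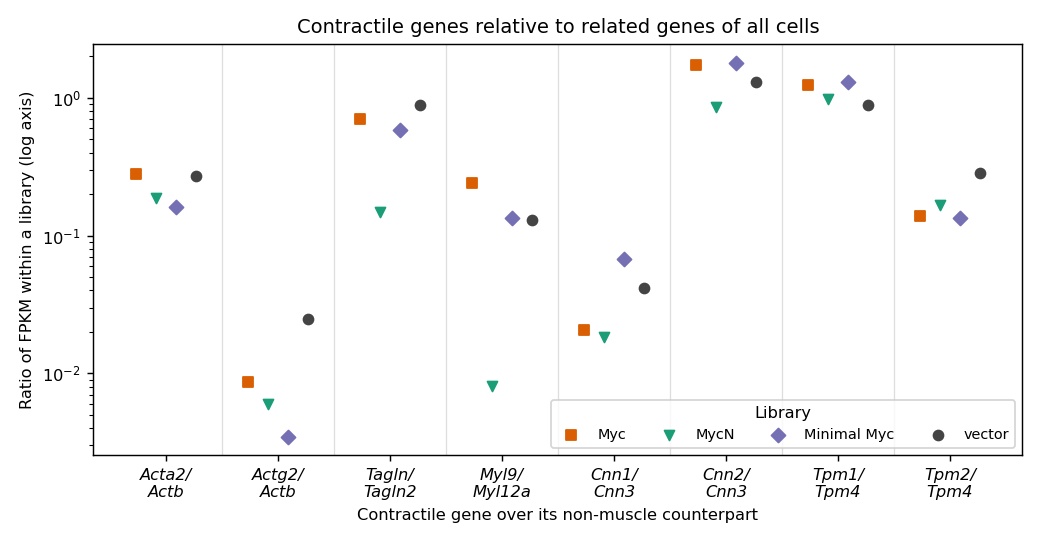
Ratio of FPKM within a library, on a log axis, of each contractile gene to a related non-muscle gene, with 1 point per library. Myl9 over Myl12a is 0.00811 in MycN and 0.129 to 0.242 in the other libraries, and the ratios of Actg2 to Actb and Tpm2 to Tpm4 are highest in vector.

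Most genes that regulate or surround this programme lay within 2-fold of vector. Of 16 non-muscle cytoskeletal genes, such as Actb, Myh9 and Tpm4, 0 were at least 2-fold higher or lower than vector in any of the 3 libraries, with median differences of 0.24 in Myc, -0.06 in MycN and 0.46 with Minimal Myc. On the log2(FPKM + 1) scale the same held for 14 regulators of contraction, such as myosin light chain kinase (Mylk) and subunits of the myosin phosphatase. Their median differences were 0.32 in Myc, 0.14 in MycN and 0.23 with Minimal Myc. For these regulators the 0 depends on the pseudocount. By FPKM, Mylk with Minimal Myc lay past the 2-fold mark below vector, at 0.439 against 1.045. Cdc42ep3, also on this list, did so with MycN, at 15.4 FPKM against 31.8 in vector. Srf was 23.0 FPKM in Myc, 29.2 in MycN, 33.1 in Minimal Myc and 18.4 in vector. Mkl1, the gene of the Srf cofactor Mrtf-A, was 18.9 FPKM in Myc, 19.9 in MycN, 18.3 in Minimal Myc and 20.4 in vector, and Mkl2, the gene of Mrtf-B, was 5.98 FPKM in Myc, 5.77 in MycN, 5.09 in Minimal Myc and 4.35 in vector. A further list held Srf and its cofactors together with other transcription regulators, such as Klf4, Yap1 and the Tead factors. Of its 15 measured genes, 1 was at least 2-fold higher than vector and 1 lower in Myc. The counts were 0 and 1 for MycN, and 3 and 1 for Minimal Myc. Beside the shares over all genes given above, the higher counts, of 1, 0 and 3 genes, are near the background. The lower gene in each was Klf4, a known repressor of smooth muscle genes, at 5.43 FPKM in Myc, 8.63 in MycN, 8.42 in Minimal Myc and 18.3 in vector. Yap1, a coactivator of Tead factors, was 64.3 FPKM in Myc, 38.8 in MycN, 62.1 in Minimal Myc and 26.3 in vector.

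Among 16 other targets of Srf, 2 were at least 2-fold higher than vector and 1 lower in Myc. The counts were 1 and 2 in MycN, and 1 and 1 in Minimal Myc, beside the same shares over all genes (11.2% higher and 1.56% lower in Myc). This list also holds Srf itself and some of the non-muscle cytoskeletal genes above, so these lists overlap. Fhl1, a LIM domain protein of muscle, was 1.68 FPKM in Myc, 0.285 in MycN, 3.48 in Minimal Myc and 8.94 in vector, and it was the lower gene in all 3 comparisons. Tes, a focal adhesion protein, was the other lower gene in MycN, at 29.2 FPKM against 64.5 in vector. Csrp2, a LIM protein of smooth muscle, was 53.7 FPKM in Myc, 34.0 in MycN, 13.5 in Minimal Myc and 21.0 in vector. Filip1l is listed at 0 in vector, which can be a failed estimate, and its count as higher in each comparison is not read.

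In the Tgfb pathway, which drives the contractile programme of myofibroblasts, 17 of 18 genes were measured. Against vector, 0 were at least 2-fold higher and 1 lower in Myc, 2 and 1 in MycN, and 2 and 0 in Minimal Myc. Over all genes 7.65% were higher in MycN and 13.6% in Minimal Myc, so the counts of 2 higher genes are near the background. The 1 lower gene with Myc and the 1 with MycN stand beside lower shares over all genes of 1.56% and 1.86%. Thbs1, thrombospondin 1, an activator of latent Tgfb, was 223 FPKM in Myc, 71.5 in MycN, 528 in Minimal Myc and 127 in vector. Ltbp1, which stores latent Tgfb in the matrix, was 33.6 FPKM in Myc, 14.5 in MycN, 40.7 in Minimal Myc and 32.2 in vector. Both were lowest in MycN and highest in Minimal Myc, as Tagln was. The ligands Tgfb2 and Tgfb3 were instead highest in MycN, at 4.93 and 14.2 FPKM, against 1.62 and 5.64 in vector. Smad6, an inhibitory Smad, was 6.84 FPKM in Myc, 21.8 in MycN, 12.2 in Minimal Myc and 17.9 in vector.

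Likeness of profile was measured as the distance between values of log2(FPKM + 1) over the 4 libraries, each gene centred on its own mean, among 10779 other genes. With 4 points a near profile is weak information. The 5 genes nearest to Acta2 were Chrnb1 (distance 0.064), Anxa1 (0.087), Cd151 (0.092), Pcgf5 (0.111) and Slc25a24 (0.119). The 5 nearest to Tagln were Rgs16 (0.353), Slit2 (0.655), Scamp5 (0.739), Dkk3 (0.743) and Tll1 (0.772). The distance grows with the size of a gene's differences, so distances to Acta2 and to Tagln are not compared. Chrnb1 (1.37 to 3.08 FPKM) and Tll1 (0.163 to 3.10 FPKM) are low genes, whose differences the pseudocount shrinks. Whether they stay among the nearest with another pseudocount was not tested. Among the contractile genes themselves the nearest pair was Cald1 and Tpm1 (0.434) and the farthest Myl9 and Tpm2 (3.46).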

How the data were processed

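The authors deposited 2 tables of FPKM for 4 libraries of polyadenylated, strand-kept RNA, 1 unscaled and 1 multiplied by a factor per library (2.04 for Myc, 1.30 for MycN, 1.28 for Minimal Myc, 1 for vector). The submitters' processing notes name Cufflinks 2.2.0, TopHat2 2.0.11 and the build mm9 without saying what each did. The 32 NanoString rows in the same columns hold none of the 10 genes and were left out. The unscaled table is the main source. Repeated rows of a gene counted once, and unequal rows were added up, which applied to 0 of the 10. Genes averaging 1 FPKM or more were tested, without 310 small RNA genes. A difference is that of log2(FPKM + 1), which understates differences of low genes, and a call is 2-fold. With 1 library per group no p-value is given. Depth was estimated from low values and transcript lengths of a later annotation (GENCODE, GRCm38), used for no coordinate of the files. Alternatives were another pseudocount (0.1), no filter, the highest row of a gene, centring on the median of all genes, and the scaled table.

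The members and gene lists were chosen with earlier results of these data known. The genes named are all members, up to 3 genes of each other list with the largest difference from vector, the Srf genes, the genes nearest in profile to Acta2 and Tagln, and genes added after their values were seen, namely Tes, Ltbp1, Tgfb2, Tgfb3, Myc, Mycn, Malat1, Tagln2 and Myl12a with the other paired genes. Beyond these, Mylk, Myh9, Myh11, Rgs5 and Myod1 are also named, with their values known. Some genes that the rule picks are not described, such as Myh10, Tln1, Calm2, Foxo4 and Tgfbr1. The looser CArG form was added after the exact one had been searched. Python 3.11.15, pandas 2.3.3 and matplotlib 3.10.9 were used.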

Additional observations from a re-analysis of the deposited data

How the results depend on the processing

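Of 90 values (medians and 2-fold counts in 6 comparisons, under 5 alternatives), 69 stayed within 0.1 on the log2 scale or 1.5 times a count. These 69 include 18 from the highest row of a gene, a setting that could not change them. Dropping the filter could not change a 2-fold count either, because Lmod1 differs by at most 0.49 on this scale. Centring could not move the medians between libraries with a Myc protein by 0.1. The medians of all genes there were -0.06, -0.03 and 0.05. The scaled table put the median of the measured genes against vector at 1.18 for Myc, -0.39 for MycN and 0.98 for the Minimal Myc library, -1.31 in MycN against Myc, and -0.39 in Minimal Myc against Myc, where the main value was 0.28 and the sign turned. It called 5 higher and 0 lower in Myc and 4 higher in Minimal Myc against vector, 6 lower in MycN against Myc and 3 lower in Minimal Myc against Myc. Centring on the median of all genes put the medians against vector at -0.32 in Myc, where the main value was 0.15 and the sign turned, -1.11 in MycN and 0.14 in Minimal Myc, with 0 higher in Myc, 5 lower in MycN, and 0 higher and 2 lower in Minimal Myc. Without the filter the median was 0.0056 in Myc against vector and -0.56 in MycN against Myc, because Lmod1 entered. A pseudocount of 0.1 gave -0.80 in MycN against Myc and 1 gene lower in Minimal Myc against Myc. Taking the highest row of a gene could move none of these values, because 0 of the 10 genes have unequal rows. The scaled table and the centring change 1 amount per library; which of them is nearer to RNA per cell was not tested. No paired analysis was possible because there is 1 library per group and no test. Cultures were not repeated, so differences cannot be told apart from variation between cultures.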

Other observations

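Striated muscle genes were mostly at or near 0: of 14 listed, 3 were measured, 10 stayed below 1 FPKM in every library, and Myod1 is listed at 0 in all 4 libraries. The measured genes were Acta1, skeletal alpha-actin, at 18.2 FPKM in Myc, 16.1 in MycN, 19.7 in Minimal Myc and 13.8 in vector, Tnnt2, cardiac troponin T, at 6.97 in Myc, 10.6 in MycN, 9.46 in Minimal Myc and 6.91 in vector, and Tnnc1, at 2.46 in Myc, 2.31 in MycN, 3.10 in Minimal Myc and 3.02 in vector. None differed from vector by 2-fold.

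Pericyte markers, of cells that share contractile genes with smooth muscle, were measured for 3 of 8 genes, with a summed level of 11.2 FPKM in Myc, 20.3 in MycN, 12.4 in Minimal Myc and 32.3 in vector. Mcam was 3.17 FPKM in Myc, 14.3 in MycN, 5.85 in Minimal Myc and 25.7 in vector, while Rgs5 was below 0.3 FPKM in all 4. Anpep was 1.97 FPKM in Myc, 0.557 in MycN, 1.83 in Minimal Myc and 3.16 in vector, so both were highest in vector. Notch3 ran the other way, at 5.67 FPKM in Myc, 4.76 in MycN, 4.30 in Minimal Myc and 2.03 in vector. Of the immune markers, 2 were measured, and Cd68 was 3.67 FPKM in Myc, 5.23 in MycN, 1.87 in Minimal Myc and 2.21 in vector. The other, Csf1r, was 1.86 FPKM in Myc, 2.81 in MycN, 1.05 in Minimal Myc and 2.42 in vector. The fibroblast markers differed in their order over the libraries. Thy1 was 115 FPKM in Myc, 95.5 in MycN, 354 in Minimal Myc and 208 in vector. Col3a1 was 63.0 FPKM in Myc, 115 in MycN, 74.1 in Minimal Myc and 35.3 in vector, and Dcn, decorin, was 330 FPKM in Myc, 135 in MycN, 247 in Minimal Myc and 81.6 in vector. The part of these markers in the contractile genes' differences was not tested.

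Actb, the counterpart used for the actins, was also read by NanoString. Its signal relative to vector was 1.54 for Myc, 0.681 for MycN and 1.23 for the Minimal Myc library, while by FPKM the ratio was 1.21 in the Myc library, 1.001 with MycN and 1.46 with Minimal Myc. Calm3, a calmodulin gene among the contraction regulators, had NanoString ratios of 1.49 in the Myc library, 0.788 with MycN and 1.15 with Minimal Myc, while its FPKM ratios were 1.60 in the Myc library, 1.19 with MycN and 1.71 with Minimal Myc. For both genes the assays thus differed in each of the 3 libraries, and in MycN the NanoString ratio was below vector and the FPKM ratio was not. These FPKM ratios are unscaled. The scaled values multiply Myc by 2.04, MycN by 1.30, Minimal Myc by 1.28 and vector by 1. In each of the 3 libraries this takes the FPKM ratios of both genes further from the NanoString ratios.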
